A study of Mus musculus with 6 samples.

Results

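Transcripts of 10 genes that report on or restrain Wnt/beta-catenin signalling were measured in mouse epiblast stem cells kept with or without Activin A. The genes were Axin1, Axin2, Lef1, Tcf7, Tcf7l2, Sp5, Nkd1, Rnf43, Znrf3 and Apcdd1. They were taken by symbol, as a fixed list, from 52609 annotated genes, and together they hold 62 of the 133399 transcripts that could be matched to the annotation. All 10 genes were found, and 9 had enough reads to be tested. Sp5 did not.

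The samples were 6 RNA-seq libraries of epiblast stem cells, a primed pluripotent cell type from dissected mouse epiblast, grown on inactivated mouse embryonic fibroblasts. One group of 3 libraries received FGF2 at 10 ng/mL, Activin A at 20 ng/mL, the Wnt secretion inhibitor IWP2 at 5 µM and the type I receptor inhibitor SB431542 at 2 µM. The other group of 3 received the same FGF2, IWP2 and SB431542 without Activin A, according to the titles and genotype labels. Both groups therefore carried the Wnt secretion block and the receptor inhibitor, and no library without them was analysed here. The labels give no age, strain or sex for the cells. The design text speaks of a pair of lines with 3 replicates each, so a difference of cell line and the omission of Activin A cannot be told apart. One label speaks against the grouping: replicate 1 of the group without Activin A has Activin A among its growth factors, and the treatment protocol names it for all samples. In that library the Nodal target Lefty1 stood at 9.28 CPM, beside 8.42 and 7.63 CPM in the other libraries without Activin A and 145 to 171 CPM in those with it. CPM is the read count scaled to library size, here after TMM normalisation. Without that library 3 of the 10 genes were called as higher and 1 as lower, in place of 4 and 1. Over all genes, 1518 of 15807 were then called as higher and 1786 as lower, in place of 2155 and 2350 of 15448.

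In the canonical Wnt pathway a complex built on Axin, with Apc, glycogen synthase kinase 3 and casein kinase 1, marks beta-catenin for destruction. When a secreted Wnt protein binds a Frizzled receptor and Lrp5 or Lrp6, this complex is held back, beta-catenin enters the nucleus and it joins TCF/LEF proteins on DNA to switch on targets. Many of those targets, such as Axin2, Nkd1, Rnf43, Znrf3 and Apcdd1, encode inhibitors that damp the signal at different steps. Epiblast stem cells are known to make their own Wnt proteins, and IWP2 is used to hold back the resulting drift towards primitive streak fates.

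Libraries ranged from 9946521 to 16350923 estimated reads, the lowest being with Activin A replicate 3. Nothing in the labels gives the samples as separate cultures, so the spread behind each p-value may be only technical. Epiblast markers were present in all libraries, with a summed level of 1468 to 1527 CPM with Activin A and 726 to 744 CPM without for 9 genes. Of these 9 genes, 1 rose and 7 fell without Activin A (median log2 fold -0.82). Of 15 fibroblast markers, 4 rose and 5 fell without Activin A, none was at 0, and their summed level was 799.9 to 867 CPM with Activin A and 1220.2 to 1258 CPM without. Acta2, a smooth muscle actin that is also made by other cell types, held much of that gap (168 ± 5.47 against 407 ± 12.1 CPM, SD, n = 3 each). The collagen genes Col1a1 (1.45-fold), Col1a2 (1.71-fold) and Col5a1 (1.27-fold) rose too, while Col3a1, Postn, Thy1, Dcn and Lox fell. Of 8 mesoderm markers 2 were tested and 1 fell, while all 8 endoderm markers had under 10 reads in every library. Of 6 tested neural markers 1 rose and 4 fell, and of 8 neural crest markers 2 rose and 4 fell. The part of feeder cells or of other cell types in the differences below was not tested. In bulk RNA, fewer cells of a type and less RNA per cell cannot be told apart.

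Without Activin A, 4 of the 9 tested genes rose, Axin2, Lef1, Nkd1 and Tcf7l2, and 1 fell, Tcf7. Axin1, Rnf43, Znrf3 and Apcdd1 did not reach the threshold of 0.05 for the adjusted p (edgeR, quasi-likelihood F test). Over all 15448 genes tested, 29.2% were called in either direction, 14.0% as higher and 15.2% as lower. The median log2 fold change of the 9 genes was 0.13, and that of all tested genes 0.0012. Only Axin2 came near a doubling, and the other 4 called genes changed by 1.27-fold to 1.32-fold. For 6 of the 9 tested genes the groups were fully separate, with 5 higher and 1 lower in the absence of Activin A. Among all tested genes this held for 42.9%, with 21.3% higher and 21.6% lower. Sp5 also did not overlap between the groups.

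**Figure D1:**
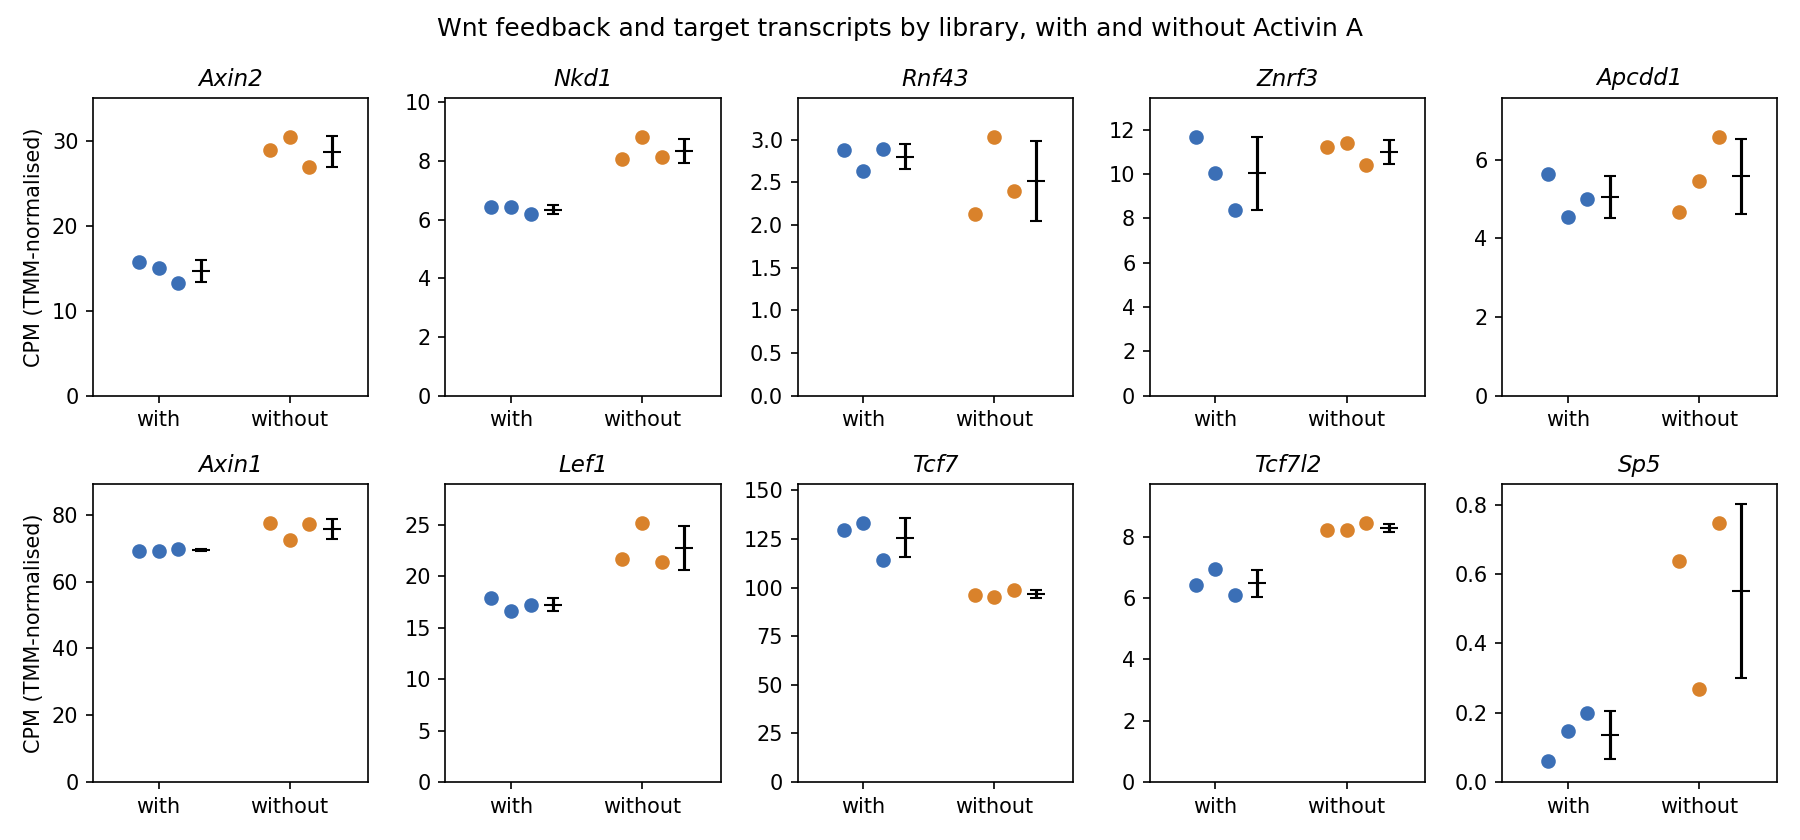
CPM (TMM-normalised, linear axes that start at 0) of the 10 genes in each library, blue with and orange without Activin A, in the order replicates 1 to 3, with the group mean and SD in black. Of the 9 tested genes Axin2 shows the widest relative separation, with means of 14.7 and 28.8 CPM, and Tcf7 is the only gene with all 3 values lower without Activin A.

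Among the feedback inhibitors, Axin2 changed most. Axin2 is a scaffold of the destruction complex whose gene is a direct target of beta-catenin in many tissues, so its transcript is widely used as a readout of the pathway. Axin2 (ENSMUSG00000000142.15, GRCm38 chromosome 11, 108920349 to 108950783, plus strand) had 15.8, 15.001 and 13.3 CPM in the libraries with Activin A and 28.9, 30.5 and 26.9 CPM in those without. The lowest value without Activin A was well above the highest value with it. The log2 fold change was 0.96 with a standard error of 0.09, a 1.94-fold rise with a 95% interval of 1.71 to 2.21 (edgeR adjusted p = 8.58e-07). Its level rested on 133 to 453 estimated reads per library. Axin2 was called in all 18 alternative analyses, with log2 folds of 0.72 to 1.02.

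Nkd1 encodes Naked cuticle 1, which binds Dishevelled and restrains Wnt signalling. It lies at chromosome 8, 88521354 to 88594884. Its level was 6.42, 6.44 and 6.19 CPM with Activin A and 8.08, 8.83 and 8.15 CPM without. All 3 values without Activin A were higher, on 62 to 131 reads per library. The rise was 1.31-fold (95% interval 1.11 to 1.56, edgeR adjusted p = 0.0182). This call was lost with DESeq2 (adjusted p = 0.121), on leaving out replicate 1 with Activin A (edgeR adjusted p = 0.0511) or replicate 2 of the other group (edgeR adjusted p = 0.0809).

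Rnf43 and Znrf3 are sister transmembrane ubiquitin ligases that remove Frizzled receptors from the cell surface. Znrf3 (chromosome 11, 5276324 to 5444847, minus strand) had 11.7, 10.0 and 8.38 CPM with Activin A and 11.2, 11.4 and 10.4 CPM without. The groups overlapped, and the fold without over with Activin A was 1.08 with a 95% interval of 0.906 to 1.29 (edgeR adjusted p = 0.533). Rnf43 (chromosome 11, 87662722 to 87735539) was lower in abundance, at 2.87, 2.63 and 2.89 CPM with Activin A and 2.13, 3.03 and 2.39 CPM without. It rested on 29 to 47 reads per library, and its fold of 0.903 had an interval of 0.675 to 1.21 (edgeR adjusted p = 0.626). The intervals of both ligase genes lie below the Axin2 fold of 1.94. The ratio of Znrf3 to Rnf43 reads was 3.59 ± 0.613 with and 4.46 ± 0.762 without Activin A (SD, n = 3 each, exact permutation p = 0.3, two-sided).

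Apcdd1 encodes a membrane glycoprotein that binds Wnt and Lrp proteins and inhibits the pathway. It lies at chromosome 18, 62922231 to 62961179. It had 5.62, 4.54 and 4.99 CPM with Activin A and 4.68, 5.46 and 6.58 CPM without. The groups overlapped, and the fold of 1.10 had a 95% interval of 0.868 to 1.38 (edgeR adjusted p = 0.583).

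Axin1 is the constitutive scaffold of the destruction complex and is not known as a Wnt target. It lies at chromosome 17, 26138688 to 26195811. Its level was 69.3, 69.2 and 69.8 CPM with Activin A and 77.6, 72.4 and 77.4 CPM without. The groups did not overlap, but the 1.09-fold difference did not pass (95% interval 1.01 to 1.18, edgeR adjusted p = 0.0996). It passed with the trend on GC content and length removed (adjusted p = 0.0278) and without the library with Activin A replicate 3 (adjusted p = 0.0458). The ratio of Axin1 to Axin2 reads was 4.395, 4.61 and 5.26 with Activin A and 2.68, 2.37 and 2.88 without. Every library without Activin A thus had a lower Axin1 to Axin2 ratio, and the exact two-sided permutation p of 0.1 is the smallest that 3 against 3 can give. This ratio restates the rise of Axin2, as Axin1 differed by only 1.09-fold, and is no separate evidence.

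**Figure D2:**
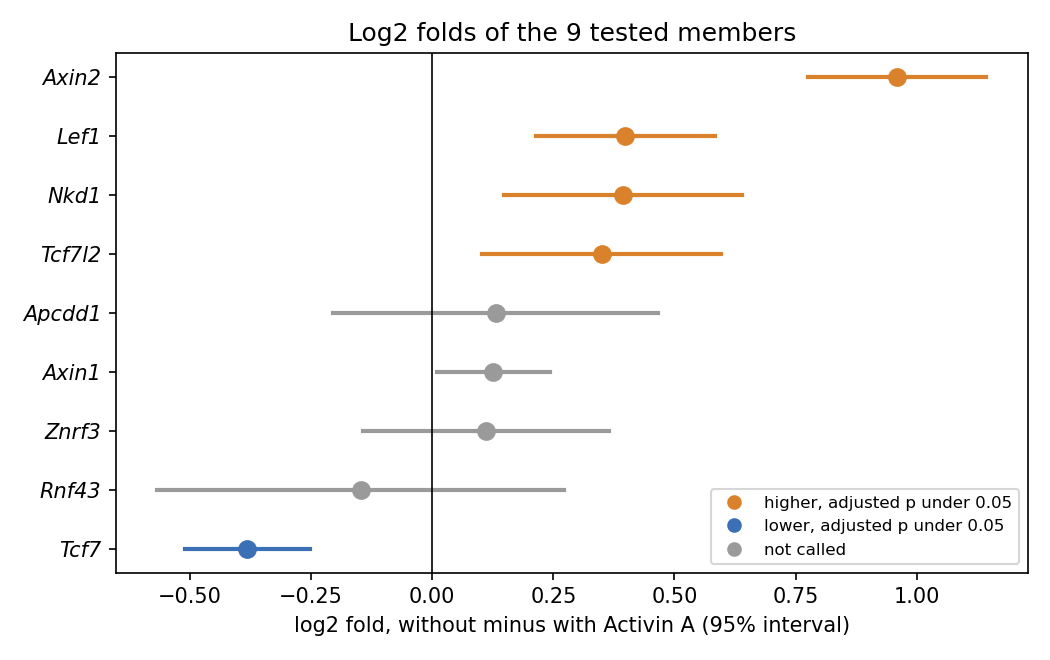
Log2 fold change without minus with Activin A (dots) and its 95% interval (lines) for the 9 tested genes, coloured by the edgeR call. Axin2 at 0.96 stands above Lef1, Nkd1 and Tcf7l2, which lie between 0.35 and 0.40, and Tcf7 at -0.38 is the only called fall.

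The DNA-binding partners of beta-catenin moved in opposite directions. Tcf7 encodes TCF1, a TCF family member that also has forms acting as repressors, and Lef1 encodes a family member that mostly acts as an activator with beta-catenin. Tcf7 (ENSMUSG00000000782.15, chromosome 11, 52252371 to 52283014, minus strand) had 129, 133 and 114 CPM with Activin A and 96.0, 95.3 and 98.8 CPM without. All values without Activin A were lower, and the gene was 1.30-fold lower (log2 fold -0.38, standard error 0.06, edgeR adjusted p = 0.000236). The fall was called in all 18 alternative analyses.

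Lef1 (ENSMUSG00000027985.14, chromosome 3, 131110471 to 131224356) had 17.9, 16.6 and 17.3 CPM with Activin A and 21.7, 25.2 and 21.4 CPM without. The groups did not overlap, and the rise was 1.32-fold (95% interval 1.16 to 1.499, edgeR adjusted p = 0.00299). Tcf7l2, which encodes TCF4, a family member with many splice forms (chromosome 19, 55741820 to 55933654), had 6.42, 6.95 and 6.09 CPM with Activin A and 8.22, 8.22 and 8.45 CPM without. Its groups did not overlap either, and it rose 1.27-fold (95% interval 1.07 to 1.51, edgeR adjusted p = 0.0338). The Tcf7l2 call rested on 61 to 122 reads per library and was lost in 12 of 18 alternatives. Among these were the removal of the library with the contradictory growth factor label (edgeR adjusted p = 0.0802), the replicate block (adjusted p = 0.0522) and DESeq2 (adjusted p = 0.180).

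Shares of the TCF/LEF transcripts were taken over these genes and Tcf7l1, the fourth gene of the family and the one best known as a repressor. The share of Tcf7 was lower and that of Lef1 higher without Activin A on each of 3 scales, by amounts that depended on the scale. On the scale of CPM per kilobase of the longest transcript, Tcf7 made up 47.9%, 49.5% and 50.1% of the sum with Activin A and 43.6%, 42.8% and 44.8% without. Tcf7l1 made up 44.7% ± 1.47 and 47.0% ± 0.617 (SD, n = 3 each). Its own CPM of 141 ± 17.1 and 128 ± 1.95 did not pass (edgeR adjusted p = 0.145). Tcf7 and Tcf7l1 together supplied most of the sum in every library. The sum itself was 104 ± 9.58 with and 89.4 ± 0.502 without Activin A. A share can therefore rise while the gene's own level does not, as for Tcf7l1.

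Lef1 made up 4.48%, 4.17% and 5.10% of this sum with Activin A and 6.66%, 7.66% and 6.55% without. Tcf7l2 made up 1.52% ± 0.0888 and 2.25% ± 0.0418. The ratio of Tcf7 to Lef1 reads went from 7.29 ± 0.696 to 4.28 ± 0.441. The groups did not overlap for any of these shares or for the ratio, each with an exact two-sided permutation p of 0.1, and 0.114 after adjustment over the 16 shares, sums and ratios computed. Tcf7 and Lef1 each separated the groups in opposite directions, so their ratio had to separate and its p adds no evidence. The shares draw on the same counts as the gene tests. On the TPM scale (transcript abundance scaled by transcript length and library total) the Tcf7 share was 41.6% ± 1.77 with and 33.6% ± 1.25 without Activin A, and the Lef1 share was 10.8% ± 1.501 with and 19.0% ± 1.71 without. With transcripts under 500 bases left out, the TPM shares were 47.5% ± 0.907 and 42.6% ± 1.66 for Tcf7, and 5.55% ± 0.360 and 8.28% ± 1.74 for Lef1. The Tcf7l1 share did not separate the groups on TPM, where they overlapped at 45.8% ± 1.86 and 43.7% ± 2.51 (exact permutation p = 0.3). It was 45.1% ± 1.05 and 46.3% ± 0.221 with the short transcripts left out (exact permutation p = 0.1).

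**Figure D3:**
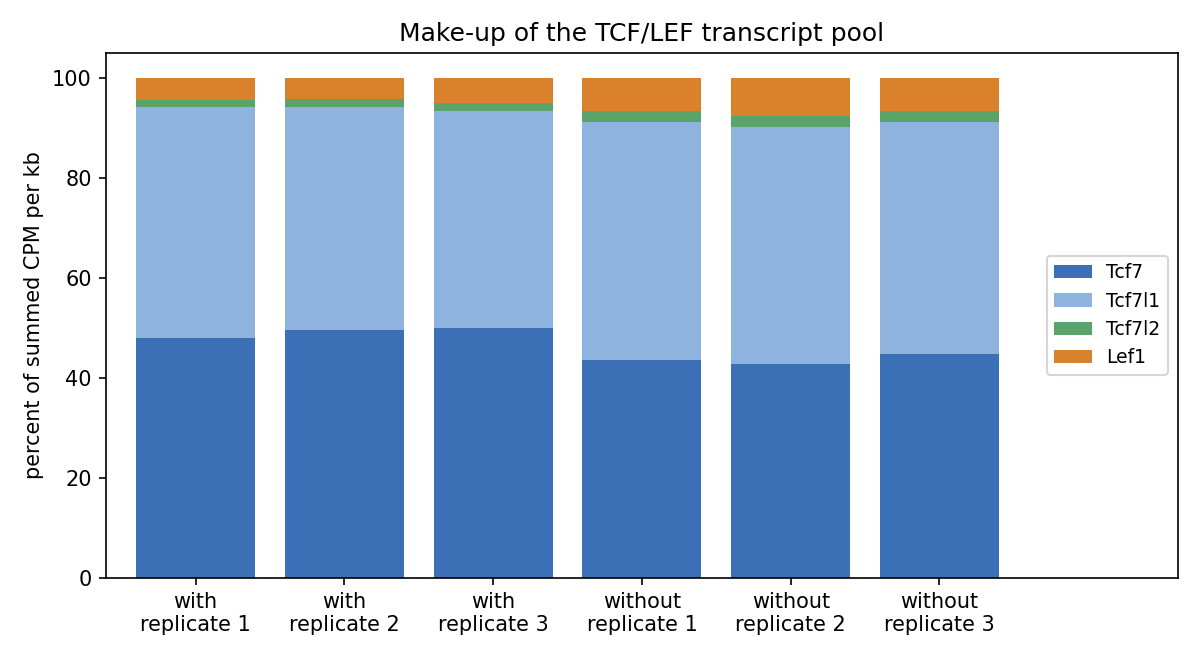
Stacked bars give the percent of the summed CPM per kilobase of Tcf7, Tcf7l1, Tcf7l2 and Lef1 in each library. The Tcf7 part (bottom) is 47.9% to 50.1% with Activin A and 42.8% to 44.8% without, and the Lef1 part (top) is 4.17% to 5.10% with and 6.55% to 7.66% without.

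Sp5 encodes a zinc finger factor that is among the most direct Wnt targets in the early embryo and represses other targets in turn. It was near the limit of detection. Sp5 (ENSMUSG00000075304.2, chromosome 2, 70474923 to 70477729) had 1, 2 and 2 reads in the libraries with Activin A and 9, 4 and 10 reads in those without, or 0.136 ± 0.0698 and 0.552 ± 0.250 CPM (SD, n = 3 each). It was removed by the low-count filter. With no filter its log2 fold was 2.05, standard error 0.69 (edgeR adjusted p = 0.0231), while the exact permutation test on its CPM gave p = 0.1, the smallest possible. These values rest on 5 reads in all with Activin A and 23 without. Of its 31-base words, 3.96% are shared with the related gene Sp9.

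The upstream sequence of Sp5 was the only one among the promoter windows examined that held the TCF/LEF core motif in the form searched. RefSeq windows of 300 bases (250 before and 50 after a start site, GRCm38.p6) were found for 7 of the 10 genes, 13 windows in all, and were searched on both strands for CTTTGAA and CTTTGAT. Of all 32851 such windows, 8.65% held one of the motifs, against 1 of the 13. The palindromic SMAD site GTCTAGAC was in 0.213% of all windows and in none of the 13. The 150 bases before the start site are shown for Sp5, with its motif in capitals at 70474819 to 70474825, and for Axin2, the tested gene with the largest change, whose window has no match. A match is only a description of these letters, and a window without one says nothing about sites elsewhere.
Sp5 chr2:70474773-70474922, plus strand: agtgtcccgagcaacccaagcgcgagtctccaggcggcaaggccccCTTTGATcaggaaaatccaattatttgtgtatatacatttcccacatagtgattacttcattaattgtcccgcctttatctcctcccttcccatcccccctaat
Axin2 chr11:108920199-108920348, plus strand: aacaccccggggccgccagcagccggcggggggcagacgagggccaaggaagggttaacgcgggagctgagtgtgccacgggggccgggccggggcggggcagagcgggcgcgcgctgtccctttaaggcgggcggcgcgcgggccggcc

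Levels between genes were compared per length. By CPM per kilobase of the longest transcript, Tcf7 was highest (50.9 ± 4.02 with and 39.1 ± 0.762 without Activin A, SD, n = 3 each), followed by Axin1 (18.4 ± 0.0874 and 20.1 ± 0.774). Lef1 (4.72 ± 0.177 and 6.22 ± 0.580) and Axin2 (3.45 ± 0.301 and 6.76 ± 0.424) came next. With Activin A every library had more Lef1 than Axin2 on this scale, and without it the ranges of the pair overlapped. Apcdd1, Nkd1, Tcf7l2 and Znrf3 lay between 1.33 and 2.35 in all libraries. The range of Znrf3 with Activin A, and that of Apcdd1 without it, overlapped the ranges of the other 3. Rnf43 followed at 0.650 ± 0.0334 and 0.584 ± 0.108, and Sp5 was lowest.

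By deposited TPM the order changed, because short annotated transcripts carry much of the TPM of some genes. Axin1 was then the highest, at 57.8 ± 9.17 TPM with and 68.4 ± 11.5 TPM without Activin A, above Tcf7 at 36.7 ± 1.34 and 29.1 ± 0.599. Its transcript Axin1-205, a retained intron transcript of 291 bases with an effective length of 44.6 bases, held 3.83% ± 0.268 and 4.42% ± 1.004 of the gene's reads but 64.7% ± 5.40 and 68.6% ± 4.64 of its TPM. With transcripts under 500 bases left out, Axin1 stood at 12.6 ± 0.508 and 14.1 ± 0.279 TPM, below Tcf7. That limit was chosen after the data had been seen.

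Lef1 showed the same feature. Lef1-208, a retained intron transcript of 345 bases, held 16.5, 8.84 and 7.97 estimated reads with Activin A and 19.4, 23.8 and 26.5 without. This was 4.71% ± 0.871 and 7.32% ± 1.69 of the reads of Lef1, and 54.8% ± 4.30 and 65.4% ± 8.22 of its TPM. Summed over all transcripts, Lef1 TPM was 1.72-fold higher without Activin A, and 1.33-fold higher with transcripts under 500 bases left out, close to the 1.32-fold rise of its counts. On that last TPM scale the Lef1 rise did not pass (limma adjusted p = 0.217), with 7.25 TPM in replicate 2 without Activin A against 5.57 and 4.31 TPM in the others. Tcf7l2 TPM was 2.00-fold higher without Activin A over all transcripts and 1.40-fold without the short ones, and its 395-base transcript Tcf7l2-216 held 0 to 5.96 reads per library.

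**Figure D4:**
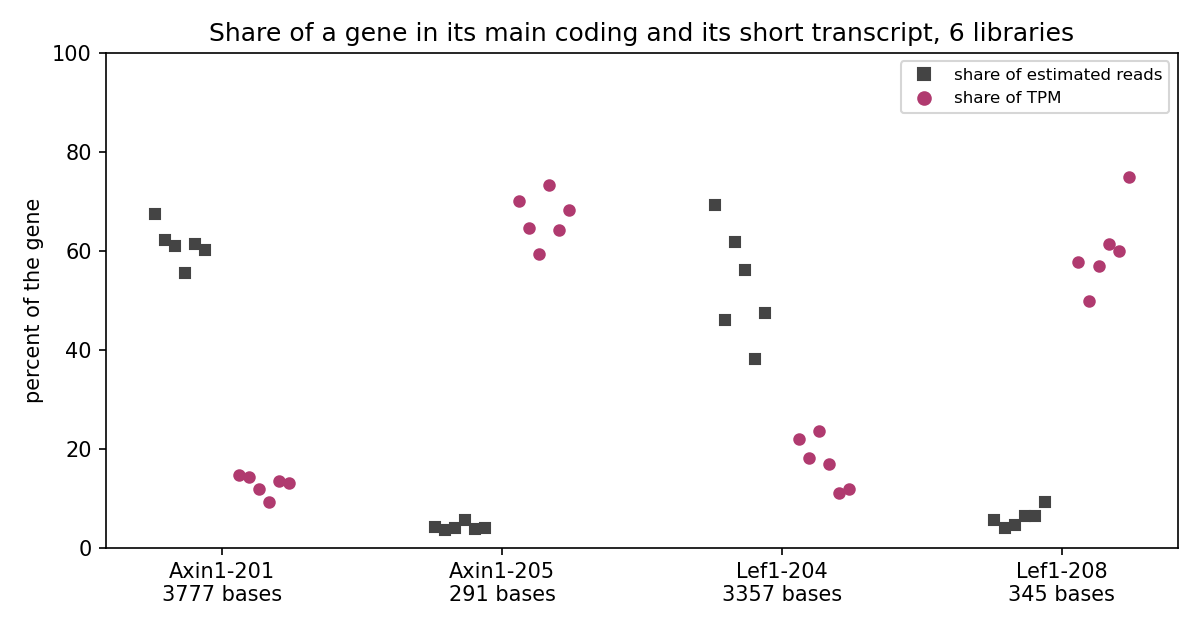
Percent of the gene's estimated reads (dark grey squares) and of its TPM (magenta circles) in 1 long coding and 1 short transcript of Axin1 and of Lef1, with the 6 libraries from left to right as with Activin A replicates 1 to 3 and without replicates 1 to 3. The short Axin1-205 holds about 4% of reads but 64.7% ± 5.40 of TPM with Activin A, and Lef1-208 holds 4.71% ± 0.871 of reads but 54.8% ± 4.30 of TPM.

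No gene of the list was called for unequal change among its transcripts. Of the 7 genes with at least a pair of testable transcripts, none passed in edgeR's diffSpliceDGE test (smallest unadjusted Simes p 0.233, for Axin1, so 0 at an unadjusted p under 0.05, and adjusted p = 0.99995 for each), against 1.37% of 8968 genes tested. The gene-level F test also called none, with adjusted p-values of 0.362 and above. The uncertainty in splitting reads between transcripts is not in the files and was not modelled. Tcf7-201 held 90.5% ± 3.24 and 87.05% ± 0.831 of Tcf7 reads with and without Activin A, and Tcf7-202, which has the same annotated start codon, held the rest. Lef1-204 was the main Lef1 transcript, with 59.0% ± 11.8 and 47.3% ± 8.99 of reads, while the longest coding form, Lef1-201, was listed at 0 in all 6 libraries.

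Lef1-203 begins at a start codon 1340 bases further along the genome than that of Lef1-204 and has 993 coding bases against 1152. It held 13.02%, 18.7% and 33.7% of Lef1 reads with Activin A and 12.04%, 15.3% and 0% without, a spread as wide within groups as between them. Nkd1-202 held 65.7%, 42.4% and 63.1% of Nkd1 reads with Activin A and 37.6%, 30.0% and 23.2% without. These groups did not overlap, and the exact permutation test on its TPM share gave p = 0.1, the smallest possible. Nkd1 was not called for unequal change, however (adjusted p = 0.99995). Axin2-201, the full-length scaffold form, held 57.1% ± 13.1 and 62.8% ± 10.5 of Axin2 reads.

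Few reads were assigned to genes that overlap the list. Reads of such genes that were wrongly assigned to the list would not show in the numbers below. Exons of the opposite-strand gene Gm11670 cover 3.80% of the exon bases of Axin2, and it had at most 2 reads in any library. Gm43352 covers 13.8% of the exon bases of Lef1 on the opposite strand, and it had 4 to 9 reads per library. No other gene of the list shared exon bases with another annotated gene, and none but Lef1 and Sp5 shared over 1% of its 31-base words with other genes. Words and exon bases were counted over all annotated transcripts. For Apcdd1 these cover 12884 exon bases, while its 2 transcripts with deposited values are 2799 and 1888 bases long.

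The rest of the pathway changed in parts. Among 78 other Wnt pathway genes in 5 lists, 66 were tested, of which 15 rose, 10 fell and 41 did not pass, 25 calls of 66 beside 29.2% of all genes. Their median log2 fold was 0.09. Beta-catenin itself, Ctnnb1, was abundant and differed little, at 1102 ± 25.3 and 1140 ± 29.0 CPM (log2 fold 0.05, standard error 0.05, edgeR adjusted p = 0.479).

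In the destruction complex list 1 of 13 tested genes rose and 2 fell (median log2 fold 0.03). Apc, the tumour suppressor scaffold, went from 118 ± 8.10 to 143 ± 0.9503 CPM, a rise of 1.21-fold (edgeR adjusted p = 0.00162). Btrc, the ubiquitin ligase subunit that recognises marked beta-catenin, was 1.18-fold lower (edgeR adjusted p = 0.00872). In the Dishevelled and casein kinase list 1 of 12 rose and 2 fell (median 0.07). Dvl3, one of the Dishevelled transducers, rose 1.23-fold (edgeR adjusted p = 0.00903), and Dact3, a Dishevelled antagonist, was 1.28-fold lower with overlapping groups (edgeR adjusted p = 0.0156).

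Among receptors 6 of 17 tested genes rose and 2 fell (median 0.14). Ror1 and Ror2, receptor tyrosine kinases of non-canonical Wnt signalling, had the largest rises. Ror2 had 3.67, 2.93 and 3.09 CPM with Activin A and 8.36, 8.89 and 8.30 CPM without, a 2.61-fold rise (edgeR adjusted p = 2.63e-06). Ror1 went from 9.06 ± 1.28 to 20.6 ± 1.005 CPM, a rise of 2.24-fold (edgeR adjusted p = 7.58e-07). Fzd2, a Frizzled receptor, stood at 159 ± 18.0 CPM when Activin A was present and at 272 ± 2.58 CPM when it was not, a rise of 1.71-fold (edgeR adjusted p = 6.29e-07). Lgr4, the R-spondin receptor that counters Rnf43 and Znrf3, had 87.3, 86.6 and 89.5 CPM with Activin A and 60.9, 53.4 and 56.1 CPM without. It was 1.54-fold lower (edgeR adjusted p = 1.69e-06), while neither ligase gene was called.

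Among TCF cofactors 5 of 15 tested genes rose and 2 fell (median 0.11). Tbl1x, a subunit of co-regulator complexes, rose 1.33-fold (edgeR adjusted p = 1.96e-05). Aes, a short Groucho-family protein also named Tle5, had 53.1, 55.8 and 37.4 CPM with Activin A and 17.4, 18.9 and 16.6 CPM without, which was 2.79-fold lower (edgeR adjusted p = 8.58e-05). It was the largest fall among these 66 tested genes. Of the 18 alternatives, Apc was called in 15, Btrc and Dvl3 in 14, Dact3 in 11, and Fzd2, Ror1, Ror2, Lgr4, Aes and Tbl1x in all.

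Of 18 other Wnt targets only 9 were tested, of which 2 rose and 2 fell (median 0.11). Tnfrsf19, which encodes the TNF receptor relative TROY, rose from 0.581 ± 0.132 to 10.4 ± 1.23 CPM (17.2-fold, edgeR adjusted p = 1.63e-09, on as few as 5 reads with Activin A). Its log2 fold of 4.10 ranged from 1.32 to 4.34 over the 18 alternatives, the lowest with limma on log2(TPM + 1), where the pseudocount weighs on low values. The ligand gene Bmp4 rose from 8.45 ± 0.327 to 18.0 ± 0.492 CPM (2.13-fold, edgeR adjusted p = 4.12e-07). Sp8, a zinc finger factor related to Sp5, was 2.75-fold lower on 2 to 24 reads per library (edgeR adjusted p = 0.0143), and was called in 10 of 18 alternatives, against 15 for Bmp4 and 18 for Tnfrsf19. Several targets, among them primitive streak and posterior factors, were scarce. Cdx1 and Cdx4 had no reads, and Cdx2, Notum, Dkk1, Dkk4 and Mixl1 had at most 6 in any library. Dkk1 had 0 to 3 reads per library with Activin A and 4 to 6 without. Other scarce targets went the other way. Wif1 had 1 to 5 reads per library with Activin A and 0 to 1 without, and Mixl1 had 3 to 4 with and 0 to 3 without. T, the primitive streak factor Brachyury, had 2 to 6 reads per library with Activin A and 4 to 16 without. Its groups overlapped, at 0.122, 0.439 and 0.299 CPM with Activin A and 1.13, 0.404 and 0.299 CPM without (exact permutation p = 0.5). The highest value was in replicate 1 without Activin A, the library with the contradictory growth factor label. Lgr5, from the receptor list and itself a target, had 1 to 3 reads per library with Activin A and 3 to 7 without.

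**Figure D5:**
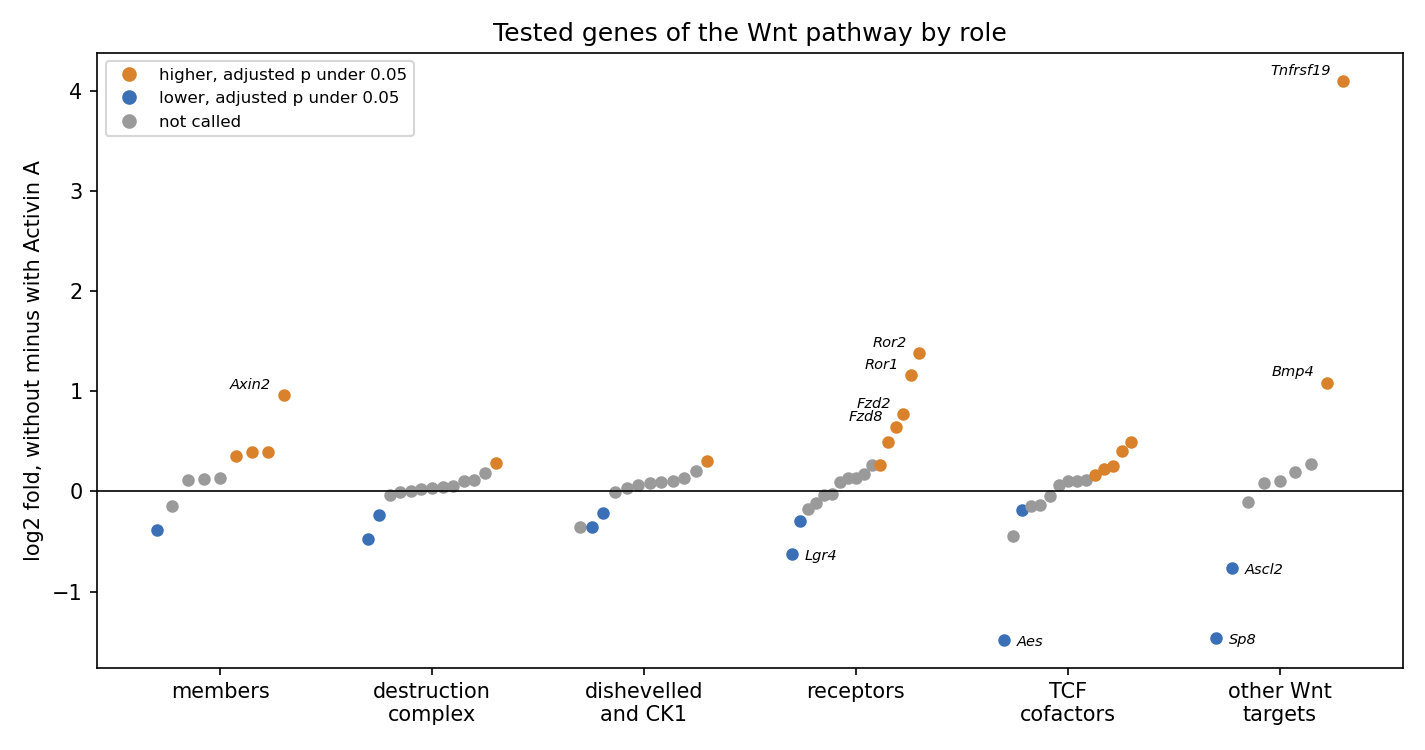
Log2 fold change without minus with Activin A for each tested gene (dots) of the 10-gene list and 5 further Wnt pathway lists, coloured by the edgeR call and sorted within each list. Genes of the destruction complex lie between -0.47 and 0.28, and Ror1, Ror2, Tnfrsf19 and Bmp4 lie above 1.

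The genes whose values over the 6 libraries were most like those of Axin2 were sought among the 10904 coding genes whose mean CPM was 5 or more. Likeness was the root mean square difference of log2 CPM, centred per gene. Among the nearest were Krt19 (0.0587), Hdac6 (0.0650), Sox13 (0.0739) and Art5 (0.0801). Sox13 had 29.5, 26.6 and 24.4 CPM with Activin A and 47.8, 49.3 and 48.7 CPM without. Over 2 groups of 3 libraries, such likeness mostly restates a similar difference between the groups.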

How the data were processed

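Per the file headers, the deposited estimated counts and TPM values cover 133618 transcripts and stand in salmon's columns. Salmon, DESeq2 and edgeR are named, with no version, in the submitters' processing notes. The authors' build, annotation and strand setting were not given in the sources used here. Transcripts were matched to GENCODE M21 (GRCm38) with the version ignored. The 219 unmatched transcripts held 0.131% to 0.149% of reads and were left out. Estimated counts were summed per gene, rounded and tested with edgeR 4.0.16 in R 4.3.3 (filterByExpr with a minimum count of 10 and a total of 15, TMM, robust quasi-likelihood F test, no block), with Benjamini-Hochberg adjustment over 15448 genes and a threshold of 0.05. Transcript usage was tested with diffSpliceDGE on 39997 transcripts. Alternatives used DESeq2 1.42.0, limma 3.58.1 and mgcv 1.9.3 and are listed in the closing section.

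The 10 genes and all lists (the 5 pathway lists and the epiblast, fibroblast, mesoderm, endoderm, neural and neural crest markers) were chosen with earlier results of these data known. Named by rule were the 10 genes and, per pathway list, the called gene with the smallest p in each direction and any called gene changed at least 2-fold. Ctnnb1, Tcf7l1, Tbl1xr1, Lefty1, the called fibroblast markers and the scarce targets were named after their values were seen. Also named by rule were the 5 genes most like Axin2 across the libraries, of which 1 is not reported here. Promoter sequences are RefSeq's (GRCm38.p6).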

Additional observations from a re-analysis of the deposited data

How the results depend on the processing

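The 18 alternatives to the gene test were RLE and upper-quartile scaling, no low-count filter, a filter of 1 CPM in 3 libraries, a transcript length offset, removal of a per-library GC and length trend, the replicate number as a block, protein-coding genes only, DESeq2, limma-trend on log2(TPM + 1) and on log2(TPM + 0.1), each of 6 libraries left out and, added after the data had been seen, limma-trend on log2(TPM + 1) with transcripts under 500 bases left out. The count of rises among the 10 genes, 4 in the main analysis, was 2 with DESeq2 and 2 with the short transcripts left out, 3 with the replicate block, and 2 to 4 on leaving out 1 library. It was 2 without replicate 1 with Activin A and without replicate 2 without it. The single fall was called each time. No log2 fold of the 9 tested genes changed sign. Over all genes, 2155 rises and 2350 falls became 937 and 1113 with the length offset, 778 and 781 with log2(TPM + 1), 752 and 752 with log2(TPM + 0.1), and 1101 and 1168 with the short transcripts left out. The block gave 2125 and 2297, the removal of 1 library 1483 to 2808 rises and 1763 to 2881 falls. Upper-quartile scaling gave 1737 and 2702.

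Among the other pathway genes, 15 rises became 9 with the length offset and 9 with limma-trend on either TPM pseudocount. Their 10 falls became 5 with the length offset, 6 with DESeq2, 3 with either TPM pseudocount and 4 with the short transcripts left out. They numbered 4 to 14 on leaving out 1 library, with 4 without replicate 1 with Activin A and 4 without replicates 2 or 3 without it. Deviations of libraries with the same replicate number correlated at -0.0113, -0.0295 and -0.0486, and those with different numbers at -0.0266 to 0.0557. These values showed no pairing by number, but a weak pairing could escape them. The block gave 15 rises and 9 falls among the other pathway genes. Tbl1xr1, a called fall, turned to a log2 fold of 0.0738 with the short transcripts left out (adjusted p = 0.791). The count of genes with unequal transcript change, 123, was 65 with the replicate block, 241 with the gene-level F test and 161 to 235 on leaving out 1 library, with 0 of the 10 genes each time. The cause of these shifts was not tested. At 29 to 47 reads per library for Rnf43 and 1 to 10 for Sp5, small changes were not detectable at this depth.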
